A study of Arabidopsis thaliana with 6 samples.

Results

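Respiratory complex I, the NADH dehydrogenase of the inner mitochondrial membrane, is built from nuclear and mitochondrial gene products, and the transcripts of its nuclear genes were compared here between cdc5 and Col-0 plants. The members are nuclear genes whose deposited Gene Ontology (GO) terms hold the words "respiratory chain complex I". Of 27947 genes in the table, 129 nuclear genes hold these letters, but for 52 of them only because the names of complexes II, III and IV begin with the same letters. The 77 genes for which complex I stands as a whole word are described, and the other 52 serve for comparison. Of the 77 genes, 62 hold a term for the complex itself and 15 only a term for its assembly.

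The study holds 3 libraries of cdc5 and 3 of Col-0, the wild-type accession, all labelled as rosette leaves. The labels name the genotype but no allele, age or growth condition, and they do not state whether different plants were used for each library. Numbers at the end of the cdc5 titles were read as replicate numbers, although they could also name alleles. CDC5 is a MYB-related partner of the spliceosome, and the series title concerns its part in transcription, splicing and flowering.

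Complex I passes electrons from NADH to ubiquinone and pumps protons. Its peripheral arm reaches into the matrix and carries the flavin and the iron-sulfur clusters, and its membrane arm holds the proton channels. In plants a domain of gamma-type carbonic anhydrases sits on the membrane arm. Assembly factors, and nuclear proteins that splice and edit the mitochondrial nad transcripts, are needed to build the complex.

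CDC5 itself (AT1G09770) had 21.8, 21.3 and 21.0 FPKM in cdc5, against 38.2, 37.0 and 36.1 FPKM in Col-0. FPKM is the number of fragments per kilobase of transcript, scaled to the mapped fragments of the library. CDC5 was lower in every cdc5 library and remained detected (limma log2 fold change -0.77, SE 0.0427, adjusted p = 2.3e-06). Estimated depth was 20.3 to 26.0 M fragments in cdc5 and 19.4 to 23.9 M fragments in Col-0. A tested complex I gene had a median of 1596 estimated fragments in a library, a counting error of 2.5%. Markers of leaf were high in every library, but so were those of flower and anther. Summed leaf markers (4 genes) stood at 11500 to 11700 FPKM in cdc5 and 9520 to 11600 FPKM in Col-0. Summed flower markers (5 genes) stood at 508 to 518 FPKM in cdc5 and 623 to 670 FPKM in Col-0, and 3 of the 5 fell. Summed anther and pollen coat markers (4 genes) stood at 1710 to 1760 FPKM in cdc5 and 2270 to 2660 FPKM in Col-0, and all 4 fell. No flower or anther marker was at 0 in all 6 libraries.

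Transcripts of 4 complex I genes that differ at a splice site, an exon or an end took larger shares of their gene in cdc5, and the stretches that differ are shown from the TAIR10.1 reference genome, 5′ to 3′ on the gene's strand. Capitals mark the bases present only in the minor transcript of CA3, RUG3 and CAL1, and the first bases of the intron in which the minor transcript of B13 ends.
CA3 (AT5G66510), chr5:26550693-26550775, minus strand: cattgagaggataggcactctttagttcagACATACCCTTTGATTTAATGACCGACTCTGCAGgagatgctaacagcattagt
RUG3 (AT5G60870), chr5:24487074-24487130, minus strand: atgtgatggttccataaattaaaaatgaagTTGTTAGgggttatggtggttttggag
CAL1 (AT5G63510), chr5:25424946-25425066, plus strand: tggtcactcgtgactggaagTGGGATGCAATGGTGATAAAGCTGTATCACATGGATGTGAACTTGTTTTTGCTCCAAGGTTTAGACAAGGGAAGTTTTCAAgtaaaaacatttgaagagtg
B13 (AT5G52840), chr5:21414016-21414052, plus strand: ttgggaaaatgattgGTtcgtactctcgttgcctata
CA3 transcript 2 used an acceptor 33 bases upstream of the one in transcript 1, and RUG3 transcript 3 one 7 bases upstream. CAL1 transcript 2 held an extra exon of 81 bases within an intron of 800 bases. B13 transcript 2 read 47 bases into the first intron and ended there. All of these stretches lie within the coding span of the most abundant transcript in the RefSeq annotation. The additions of 33 and 81 bases are multiples of 3, and the addition of 7 bases is not.

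In FPKM without further scaling, most structural subunits of complex I were lower in cdc5, by a small amount. Fewer were called lower with other scaling, as given below. Of 77 genes, 73 passed the filter of a mean of 1 FPKM, and of these 16 rose and 27 fell (limma on log2(FPKM + 1), Benjamini-Hochberg adjusted p under 0.05 over all genes). Over all 19778 genes tested, 33.3% were called higher and 22.4% lower in cdc5. The median log2 fold change was -0.07 over the complex I genes and 0.06 over all genes. The 38 structural subunits, those of both arms and the carbonic anhydrase domain, had 1 gene that rose and 22 that fell (57.9% of them), with a median of -0.14. All 3 cdc5 libraries lay below all 3 Col-0 libraries in 26 of the 38 subunits and above them in 3. The matching shares over all genes were 25.5% below and 38.1% above. The FPKM of the 38 subunits summed to 3477, 3503 and 3412 in cdc5, against 3847, 3897 and 3891 in Col-0. The FPKM of all transcripts also summed to less in cdc5, to 598907, 600617 and 600726, against 622265, 631289 and 626134 in Col-0. The level in cdc5 was a median of 90.4% of that in Col-0 (range 75.8% to 113%).

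Of the 77 genes 30 overlap another gene, and among the 25 structural subunits that overlap none 12 fell and 1 rose. Their median log2 fold change was -0.08, against -0.14 over all 38 subunits. After cyclic loess scaling 7 of these 25 fell (28.0%, against 26.0% of all genes) and 3 rose. The count of lower subunits depended on how libraries were scaled. Here "as deposited" means the limma fit on FPKM without further scaling, and not the authors' own calls. With cyclic loess scaling 3 of the 38 rose and 13 fell (34.2%, against 26.0% of all genes). With values adjusted for transcript length and GC content 5 rose and 16 fell (42.1%, against 25.3% of all genes). Of the calls among complex I genes, 37.2% were higher as deposited, 45.5% with loess scaling and 45.0% with the adjustment. Of the calls among all genes the same shares were 59.8%, 50.3% and 52.6%. Flower and anther markers were also lower in cdc5 than in Col-0, and their part in the level of these subunits was not tested. In whole-tissue RNA, fewer cells of a type and less RNA per cell cannot be told apart.

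**Figure D1:**
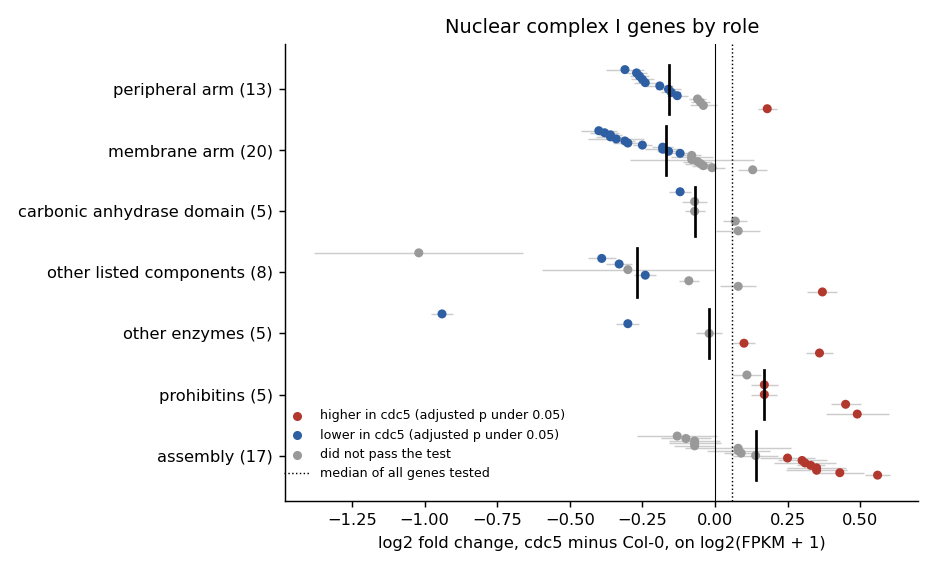
Each point is the log2 fold change of a tested complex I gene, cdc5 minus Col-0 on log2(FPKM + 1), with its SE as a bar, by the gene's role (number tested in brackets). Black ticks are medians of a role (-0.16 in the peripheral arm, -0.17 in the membrane arm, 0.17 for prohibitins and 0.14 for assembly genes), and the dotted line is the median of all genes, 0.06.

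The peripheral arm had 9 of 13 subunits that fell (69.2%, against 22.4% of all genes) and 1 that rose (median -0.16). The genes of its electron path did not move together. EMB1467 (AT5G37510, chromosome 5, 14897329 to 14900693), the large iron-sulfur subunit, had 85.9, 84.7 and 87.6 FPKM in cdc5, against 77.3, 75.3 and 75.7 FPKM in Col-0. It was higher in every cdc5 library, and it is the 1 structural subunit that rose (log2 fold change 0.18, SE 0.0327, adjusted p = 0.0018). CI51 (AT5G08530), which binds NADH and flavin, had 123, 123 and 122 FPKM in cdc5, against 130, 127 and 129 FPKM in Col-0. All cdc5 values lay below those of Col-0, but the difference did not pass the test (log2 fold change -0.06, adjusted p = 0.092). AT4G02580, the iron-sulfur subunit beside CI51, had 112, 113 and 114 FPKM in cdc5, against 119, 129 and 125 FPKM in Col-0, and fell (log2 fold change -0.13, adjusted p = 0.012). That call was lost with loess scaling (-0.06, adjusted p = 0.2).

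The TYKY subunit, which carries iron-sulfur clusters towards the membrane, is encoded by a pair of genes, and both fell. AT1G79010 (chromosome 1, 29724796 to 29727028) had 90.9, 93.1 and 90.5 FPKM in cdc5, against 109, 111 and 108 FPKM in Col-0 (log2 fold change -0.26, SE 0.0317, adjusted p = 1.8e-04). AT1G16700 had 54.1, 51.9 and 52.2 FPKM in cdc5, against 57.4, 64.0 and 60.2 FPKM in Col-0 (log2 fold change -0.19, SE 0.0463, adjusted p = 0.0066). The groups did not overlap in either gene. PSST (AT5G11770), which holds the last cluster before ubiquinone, had 102, 108 and 99.2 FPKM in cdc5, against 119, 113 and 114 FPKM in Col-0. PSST fell as deposited (log2 fold change -0.16, adjusted p = 0.011), but after the length and GC adjustment its difference was 0.01 (adjusted p = 0.77).

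As deposited, the 2 largest decreases of the peripheral arm were in accessory subunits, followed closely by the TYKY gene AT1G79010 (log2 fold change -0.26). With loess scaling AT1G79010 and AT3G03100 were both at -0.19. Another accessory subunit, AT3G12260 (B14), did not pass the test (log2 fold change -0.04, adjusted p = 0.52). AT5G47890 (B8) had 65.2, 63.9 and 61.1 FPKM in cdc5, against 70.6, 84.8 and 81.8 FPKM in Col-0 (log2 fold change -0.31, adjusted p = 0.0044). AT3G03100 (B17.2) had 99.0, 101 and 103 FPKM in cdc5, against 120, 126 and 121 FPKM in Col-0 (log2 fold change -0.27, adjusted p = 2.2e-04). AT5G47890 and AT3G03100 were lower in every cdc5 library. These 2 genes and AT3G12260 lie outside the rule for named genes and were chosen after their values were seen.

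In the membrane arm 12 of 20 subunits fell (60.0%, against 22.4% of all genes) and none rose as deposited (median -0.17). With loess scaling 1 rose and 7 fell (35.0%, against 26.0% of all genes). With the length and GC adjustment 2 rose and 7 fell (35.0%, against 25.3% of all genes). The lowest fold change of the arm belonged to one of its most abundant genes. AT1G76200 (chromosome 1, 28593211 to 28594750), annotated as a beta subcomplex subunit, had 164, 159 and 139 FPKM in cdc5, against 197, 201 and 212 FPKM in Col-0. Its cdc5 values lay well below those of Col-0 (75.8% of the Col-0 mean, log2 fold change -0.40, SE 0.0611, adjusted p = 8.3e-04). AT3G08610 (MWFE), the other subunit among the 3 most abundant complex I genes, had 180, 193 and 186 FPKM in cdc5, against 211, 206 and 218 FPKM in Col-0. It fell as deposited (log2 fold change -0.18, adjusted p = 0.0029), not with loess scaling (adjusted p = 0.084) or the length and GC adjustment (adjusted p = 0.066).

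As deposited, both copies fell in some pairs of duplicated subunits and not in others. With loess scaling, and with the length and GC adjustment, both copies fell only in the TYKY and B16.6 pairs. The B16.6 genes MEE4 (AT1G04630) and AT2G33220 encode an accessory subunit near the junction of the arms. MEE4 had 40.0, 42.2 and 36.9 FPKM in cdc5, against 52.3, 52.0 and 51.1 FPKM in Col-0. AT2G33220 (chromosome 2, 14078850 to 14080743) had 76.6, 72.9 and 72.4 FPKM in cdc5, against 94.6, 98.2 and 92.1 FPKM in Col-0. Both copies were lower in every cdc5 library, with log2 fold changes of -0.38 (adjusted p = 3.0e-04) and -0.36 (adjusted p = 1.0e-04). Both, like other genes named here, overlap a neighbouring gene, so fragments of the neighbour may enter their values. MEE4 supplied 34.9% of the pair in cdc5 and 35.3% in Col-0.

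The B12 pair fell too as deposited. AT2G02510 had 60.3, 55.9 and 52.7 FPKM in cdc5, against 71.5, 74.0 and 72.1 FPKM in Col-0 (log2 fold change -0.36, adjusted p = 3.6e-04). AT1G14450 had 94.7, 74.3 and 92.1 FPKM in cdc5, against 106, 107 and 117 FPKM in Col-0 (log2 fold change -0.34, adjusted p = 0.023). The cdc5 values of AT1G14450 spread more widely, and its call was lost under 6 of 13 alternatives. Among these were loess scaling (adjusted p = 0.056) and the length and GC adjustment (adjusted p = 0.061). Both genes of the 15kDa pair passed the test as well, AT2G47690 at -0.18 (adjusted p = 0.03) and AT3G62790 at -0.16 (adjusted p = 0.0078), and neither passed with loess scaling or the length and GC adjustment.

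The PGIV, ESSS and PDSW pairs differed from these. In the PGIV pair AT5G18800 had 82.0, 83.7 and 74.8 FPKM in cdc5, against 95.4, 98.6 and 103 FPKM in Col-0, and fell (log2 fold change -0.30, adjusted p = 9.3e-04). Its partner AT3G06310 had a log2 fold change of -0.06 (adjusted p = 0.37). The share of AT3G06310 in the pair was 31.6% in cdc5 and 28.0% in Col-0, with no overlap of its log2 ratio to the partner between the groups. In the ESSS pair AT2G42310 had a log2 fold change of 0.13 (adjusted p = 0.062, called higher with loess scaling at 0.009) and AT3G57785 one of -0.08 (adjusted p = 0.41). The share of AT2G42310 was 68.5% in cdc5 and 65.4% in Col-0, again without overlap. The difference within a pair was not tested, and with 3 libraries against 3 an exact permutation test could not give a p below 0.1. In the PDSW pair AT1G49140 had a log2 fold change of -0.05 (adjusted p = 0.45) and AT3G18410 one of -0.08 (adjusted p = 0.078).

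The 5 carbonic anhydrase genes, which form the matrix-facing domain typical of plant complex I, changed little at the gene level. GAMMACA2 (AT1G47260) had 58.6, 56.5 and 54.2 FPKM in cdc5, against 61.4, 60.9 and 62.0 FPKM in Col-0. It was the 1 gene of the 5 that fell (log2 fold change -0.12, adjusted p = 0.026), and the call was lost under 5 of 13 alternatives. GAMMACA1 (AT1G19580), GAMMACAL2 (AT3G48680), CAL1 and CA3 had log2 fold changes of 0.08, -0.07, -0.07 and 0.07, and their adjusted p ranged from 0.13 to 0.38. With loess scaling 1 of the 5 rose and none fell, and with the length and GC adjustment 2 rose and 1 fell, so no direction is given for the domain.

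**Figure D2:**
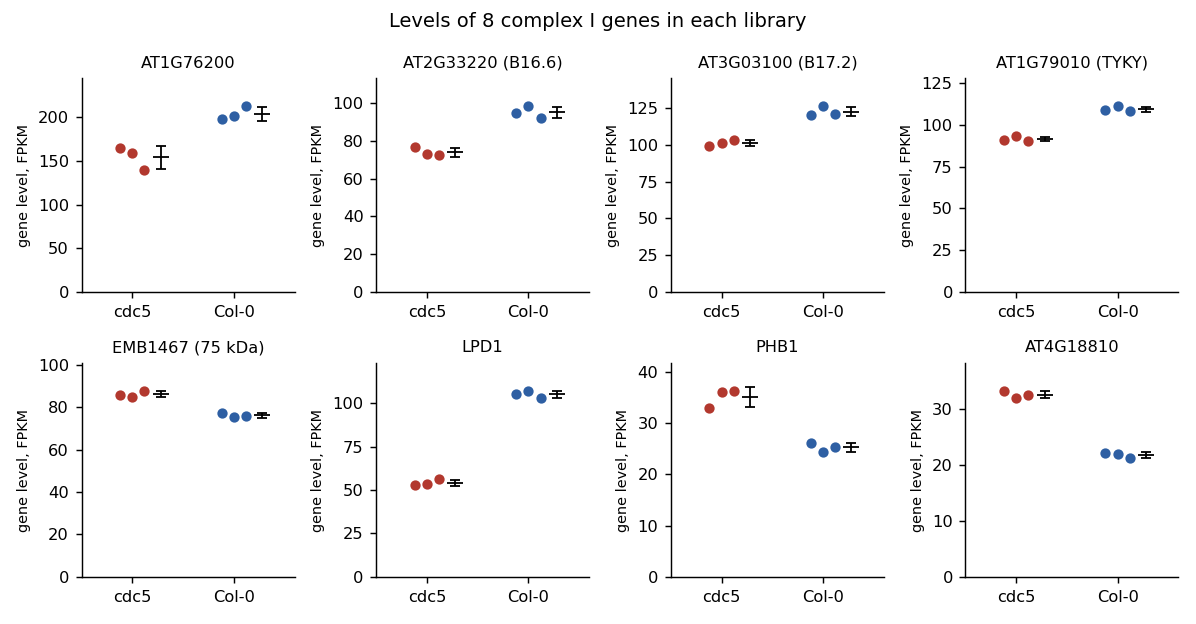
Gene level in FPKM of 8 complex I genes in each cdc5 library (red) and Col-0 library (blue), with the mean and SD at the right of each group. AT1G76200, AT2G33220, AT3G03100, AT1G79010 and LPD1 lie lower in all 3 cdc5 libraries, and EMB1467, PHB1 and AT4G18810 lie higher.

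Genes whose products are listed with complex I by GO, but were not assigned here to one of its arms, moved in both directions. Of 9 other listed components 8 were tested, and 1 rose and 3 fell (median -0.27). These are 12.5% and 37.5%, against 33.3% higher and 22.4% lower over all genes. AT1G67350 had 83.7, 83.7 and 79.4 FPKM in cdc5, against 104, 105 and 116 FPKM in Col-0 (log2 fold change -0.39, adjusted p = 1.8e-04). AT5G14105 had 34.8, 36.3 and 36.4 FPKM in cdc5, against 26.9, 26.3 and 29.5 FPKM in Col-0 (log2 fold change 0.37, adjusted p = 3.9e-04). The groups did not overlap in either gene.

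Among 5 enzymes of other pathways that carry a complex I term, LPD1 had the largest decrease of any complex I gene that passed the test. LPD1 (AT1G48030, chromosome 1, 17716893 to 17719500) encodes a mitochondrial lipoamide dehydrogenase, an enzyme shared by pyruvate dehydrogenase and glycine decarboxylase. It had 52.8, 53.3 and 56.1 FPKM in cdc5, against 105, 107 and 103 FPKM in Col-0. Its level in cdc5 was 51.5% of that in Col-0, a log2 fold change of -0.94 (SE 0.037, adjusted p = 3.1e-07). The adjusted p stayed at or below 3.0e-04 under all 13 alternatives. Its paralog LPD2 (AT3G17240) had 49.8, 53.2 and 49.5 FPKM in cdc5, against 50.7, 50.3 and 53.5 FPKM in Col-0, and these groups overlapped (log2 fold change -0.02, adjusted p = 0.73). LPD1 supplied 51.5% of the pair in cdc5 and 67.1% in Col-0.

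SHM2 (AT5G26780), a mitochondrial serine hydroxymethyltransferase, had 31.0, 28.6 and 30.7 FPKM in cdc5, against 23.6, 22.6 and 23.5 FPKM in Col-0. It rose (log2 fold change 0.36, adjusted p = 2.7e-04), but its most abundant transcript alone did not (adjusted p = 0.87). AT5G08690, an ATP synthase beta subunit, was among the 3 most abundant genes, with 192, 197 and 185 FPKM in cdc5, against 185, 177 and 174 FPKM in Col-0. Its lowest cdc5 value and highest Col-0 value were equal after rounding, and its difference was close to the threshold (log2 fold change 0.10, adjusted p = 0.047, lost under 7 of 13 alternatives).

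The prohibitins that passed the test were higher in cdc5. They are scaffold proteins that form rings in the inner membrane and copurify with complex I. Of 6 genes 5 were tested and 4 rose (80.0%, against 33.3% of all genes, median 0.17). All 5 rose with loess scaling, where 26.3% of all genes did. With the most abundant transcript alone 2 rose (40.0%, against 23.0% of all genes). With the length and GC adjustment PHB3 lost its call (adjusted p = 0.54) and PHB6 gained one (adjusted p = 0.0024). PHB4 (AT3G27280, chromosome 3, 10076809 to 10078608) had 49.2, 48.1 and 44.8 FPKM in cdc5, against 28.2, 35.0 and 38.2 FPKM in Col-0 (log2 fold change 0.49, SE 0.108, adjusted p = 0.0088). PHB1 (AT4G28510, chromosome 4, 14084624 to 14086882) had 32.8, 36.0 and 36.2 FPKM in cdc5, against 26.1, 24.3 and 25.3 FPKM in Col-0 (log2 fold change 0.45, SE 0.0519, adjusted p = 1.3e-04). Both were higher in every cdc5 library, but the most abundant transcript of PHB4 alone did not pass (adjusted p = 0.051).

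The 17 assembly genes were expressed at a lower level than the subunits, with means over all libraries of 1.73 to 27.3 FPKM. As deposited 8 rose (47.1%, against 33.3% of all genes) and none fell (median 0.14). With loess scaling 4 rose (23.5%, against 26.3% of all genes), and with the length and GC adjustment 6 rose (35.3%, against 28.0% of all genes) and 1 fell. The rise of these genes as a group was thus no more frequent than over all genes with loess scaling. AT4G18810 (chromosome 4, 10322060 to 10325906), a protein with a GO term for assembly of the complex, had 33.3, 32.1 and 32.5 FPKM in cdc5, against 22.2, 22.1 and 21.3 FPKM in Col-0. It had the highest log2 fold change of the 73 genes (0.56, SE 0.0417, adjusted p = 1.2e-05) and was called under all 13 alternatives. AT3G21400 had 16.1, 16.7 and 13.3 FPKM in cdc5, against 11.1, 10.7 and 11.6 FPKM in Col-0 (log2 fold change 0.43, adjusted p = 0.0024). Groups did not overlap in either gene.

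AT3G60150, which resembles an assembly factor, and AT3G16010, a pentatricopeptide repeat (PPR) protein, each had a log2 fold change of 0.35 (adjusted p = 0.019 and 0.017). Each call was lost under several alternatives, with an adjusted p of up to 0.32 and 0.17. Without cdc5 replicate 3, 4 assembly genes rose in all, and without Col-0 replicate 1 or 3 there were 5. RUG3, which is needed to splice a mitochondrial nad transcript, rose at the gene level (log2 fold change 0.30, adjusted p = 0.014), but not with loess scaling (adjusted p = 0.082) or without cdc5 replicate 2. The 3 tested genes with the lowest level were AT1G24851, AT4G01400 and AT1G52620, with means over all libraries of 1.73, 1.86 and 2.60 FPKM. AT4G01400 rose as deposited (log2 fold change 0.31, adjusted p = 0.031), a call that held under 4 of 12 alternatives. AT1G52620 is the gene that was lower after the length and GC adjustment (-0.23, adjusted p = 0.049).

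Length was a property that the subunits shared and the membership rule did not use. Structural subunits had a median transcript length of 835 bases (range 606 to 2810). Over all genes the median log2 fold change was -0.09 in the shortest decile by length and 0.20 in the longest. In the shortest decile 32.9% of all genes were called lower, and 12 of the 17 structural subunits in it, with a median of -0.24. In the next decile 33.8% of all genes were called lower, and 5 of 9 structural subunits (median -0.12 against -0.06 for all genes). Across the 73 tested genes Spearman's rho between length and log2 fold change was 0.46, across all nuclear genes 0.24. These values describe genes of the same 6 libraries, and genes are not independent replicates.

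**Figure D3:**
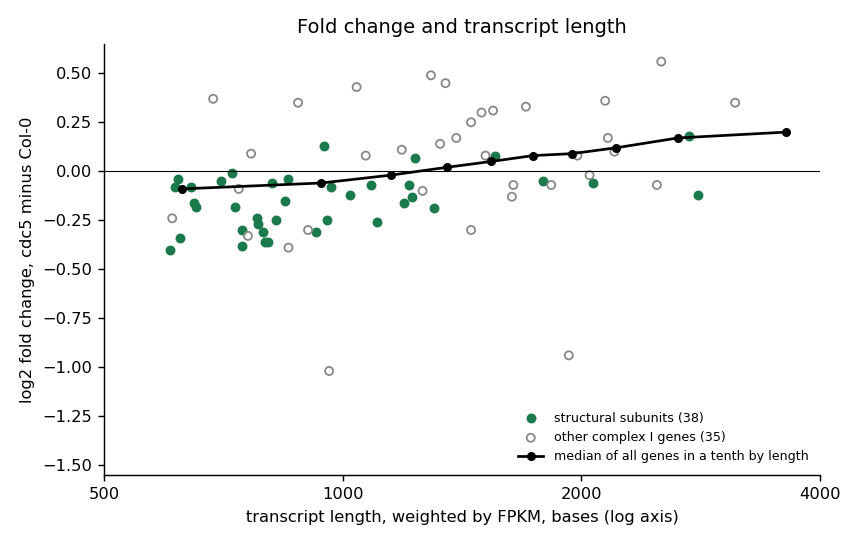
Log2 fold change, cdc5 minus Col-0, against transcript length in bases (log axis) for the 38 structural subunits (green) and 35 other complex I genes (open), with medians of all nuclear genes in deciles by length (black). Medians of all genes run from -0.09 in the shortest decile to 0.20 in the longest, and most structural subunits lie below the line at the short end.

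A motif of plant promoters was common upstream of the structural subunits, in those that fell and in the others. Site II elements, TGGGCC or TGGGCT on either strand with overlapping matches counted apart, are known from promoters of plant respiratory genes. Within 250 bases upstream of the RefSeq gene start, 22 of 38 structural subunits (57.9%) held at least 1, against 22.9% of the tested protein-coding nuclear genes. Of the 22 subunits that fell 13 held one (59.1%), and of the other 16 subunits 9 (56.2%). The motif AAACCCTA, another element of plant housekeeping promoters, was in 3 of the 38 (7.89%) and in 3.66% of tested protein-coding nuclear genes. The last 150 bases before the start are shown for the structural subunit with the lowest fold change and for the 1 that rose, with site II elements in capitals, from TAIR10.1.
AT1G76200, chr1:28593061-28593210, plus strand: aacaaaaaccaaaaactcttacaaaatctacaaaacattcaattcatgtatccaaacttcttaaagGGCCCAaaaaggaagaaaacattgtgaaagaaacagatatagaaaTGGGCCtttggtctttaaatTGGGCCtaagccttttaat
EMB1467, chr5:14897179-14897328, plus strand: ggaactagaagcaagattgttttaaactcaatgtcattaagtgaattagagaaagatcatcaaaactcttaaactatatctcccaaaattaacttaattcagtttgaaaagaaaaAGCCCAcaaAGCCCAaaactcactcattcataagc
AT1G76200 held 3 elements of the TGGGCC form and EMB1467 held 2 of the TGGGCT form in these windows. A match is a description of letters and not of binding.

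Changes in isoform use were found in 9 of the 23 complex I genes with at least 2 tested transcripts (limma diffSplice, Simes p adjusted over all genes). Over all genes 1415 of 5456 (25.9%) were called. In 8 of the 9 genes a minor transcript, meaning one that is not the most abundant of its gene, was itself called higher in cdc5. Among the 33 minor transcripts tested in complex I genes 8 were higher and 1 was lower, against 13.2% higher and 4.56% lower among all 7996 minor transcripts. Of the 8 higher ones 6 had a mean under 1 FPKM in Col-0 and passed the filter only through cdc5, so this count favours the higher direction and is given as a description. These 6 belong to CA3, RUG3, CAL1, B13, PDSW and LPD1 and entered the usage test in the same way. The count of 9 usage calls and their adjusted p are therefore a description too. The additions are those printed above for CA3, RUG3, CAL1 and B13.

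CA3 (AT5G66510, chromosome 5, 26549698 to 26551636) showed the largest change of a transcript. Transcript 2, with the upstream acceptor, had 7.19, 6.08 and 4.90 FPKM in cdc5, against 0.0954, 0.168 and 0.125 FPKM in Col-0. The Col-0 values lie near what 3 fragments over 1 kilobase would give (0.116 to 0.154 FPKM across libraries), so no linear fold is given. Its share of the gene was 10.7%, 9.10% and 6.93% in cdc5, against 0.153%, 0.253% and 0.19% in Col-0. The log2 fold change on log2(FPKM + 1) was 2.63 (SE 0.163, adjusted p = 4.7e-04), and the usage test gave an adjusted p of 1.3e-06. Transcript 1, which stood at 62.2 ± 3.21 FPKM in cdc5 and 64.6 ± 2.17 FPKM in Col-0 (SD, n = 3 each), did not pass (log2 fold change -0.06, adjusted p = 0.42).

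CAL1, another protein of the carbonic anhydrase domain, gained its extra exon in a small share of transcripts. Transcript 2 had 1.55, 1.19 and 1.97 FPKM in cdc5, against 0.275, 0.773 and 0.361 FPKM in Col-0. Its share was 2.15%, 1.65% and 2.72% in cdc5, against 0.367%, 0.988% and 0.486% in Col-0, without overlap (usage adjusted p = 0.0064). The call of transcript 2 by itself (adjusted p = 0.045) was lost under several alternatives, with an adjusted p of up to 0.13.

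B13 (AT5G52840), a subunit of the peripheral arm, and PDSW (AT3G18410), one of the membrane arm, showed transcripts that keep intron sequence. B13 transcript 2, which ends in the first intron, had 2.20, 2.22 and 2.12 FPKM in cdc5, against 0.437, 0.557 and 0.116 FPKM in Col-0 (log2 fold change 1.23, adjusted p = 0.007, usage adjusted p = 1.1e-04). PDSW transcript 2, with a retained intron of 589 bases in the 3′ UTR, had 2.16, 2.55 and 2.11 FPKM in cdc5, against 0.877, 0.811 and 0.767 FPKM in Col-0 (log2 fold change 0.85, adjusted p = 0.0079, usage adjusted p = 2.6e-05). Both stayed under 2% of their gene in every library, and the groups did not overlap.

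Among these genes RUG3 had the largest share taken by a minor transcript. Transcript 3, with 7 added bases, had 2.80, 3.13 and 4.32 FPKM in cdc5, against 1.38, 0.689 and 0.533 FPKM in Col-0. Its share was 40.3%, 40.9% and 68.2% in cdc5, against 24.4%, 13.7% and 9.36% in Col-0, and the groups did not overlap. The transcript rose (log2 fold change 1.25, SE 0.234, adjusted p = 0.013), and the usage test gave an adjusted p of 0.024. Transcript 1 had 3.51, 3.87 and 0.707 FPKM in cdc5, against 3.79, 4.10 and 4.69 FPKM in Col-0, a spread that rests on cdc5 replicate 3 and did not pass (adjusted p = 0.33). The transcripts differ at this acceptor by 7 bases, and the sources used here do not give how fragments were shared between them.

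PHB4 and LPD1 held retained introns in the 3′ UTR. PHB4 transcript 2, with an intron of 200 bases kept, had 8.57, 8.87 and 5.94 FPKM in cdc5, against 1.45, 2.60 and 2.49 FPKM in Col-0. Its share was 16.4% ± 2.74 in cdc5 and 6.37% ± 1.16 in Col-0 (SD, n = 3 each, usage adjusted p = 0.0096). LPD1 transcript 3, with an intron of 104 bases kept, had 1.95, 1.83 and 2.35 FPKM in cdc5, against 0.504, 0.679 and 0.489 FPKM in Col-0, while transcripts 1 and 2 fell (log2 fold change -1.21 and -0.87, adjusted p = 0.0027 and 5.6e-04). The usage test for LPD1 gave an adjusted p of 3.3e-07.

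LPD2 transcript 2, a single-exon model that reads through the first intron of 365 bases, had 6.78, 8.77 and 5.71 FPKM in cdc5, against 2.65, 3.00 and 4.91 FPKM in Col-0 (usage adjusted p = 0.018). In AT2G47690, of the 15kDa pair, the most abundant transcript made up 95.4% ± 0.235 in cdc5 and 97.8% ± 0.08 in Col-0 (SD, n = 3 each, usage adjusted p = 0.035). The usage calls of CA3, PDSW, B13 and PHB4 held under all 9 alternatives that tested them, and that of CAL1 under the 6 that did. The call of LPD1 was lost only at the filter of 5 FPKM. Those of LPD2, RUG3 and AT2G47690 were each lost in several alternatives. In the alternatives that tested them, the minor transcripts of CA3, PDSW, B13 and CAL1 again passed the filter only through cdc5. At a filter of 5 FPKM, which removes most minor transcripts, 1 usage call was left.

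**Figure D4:**
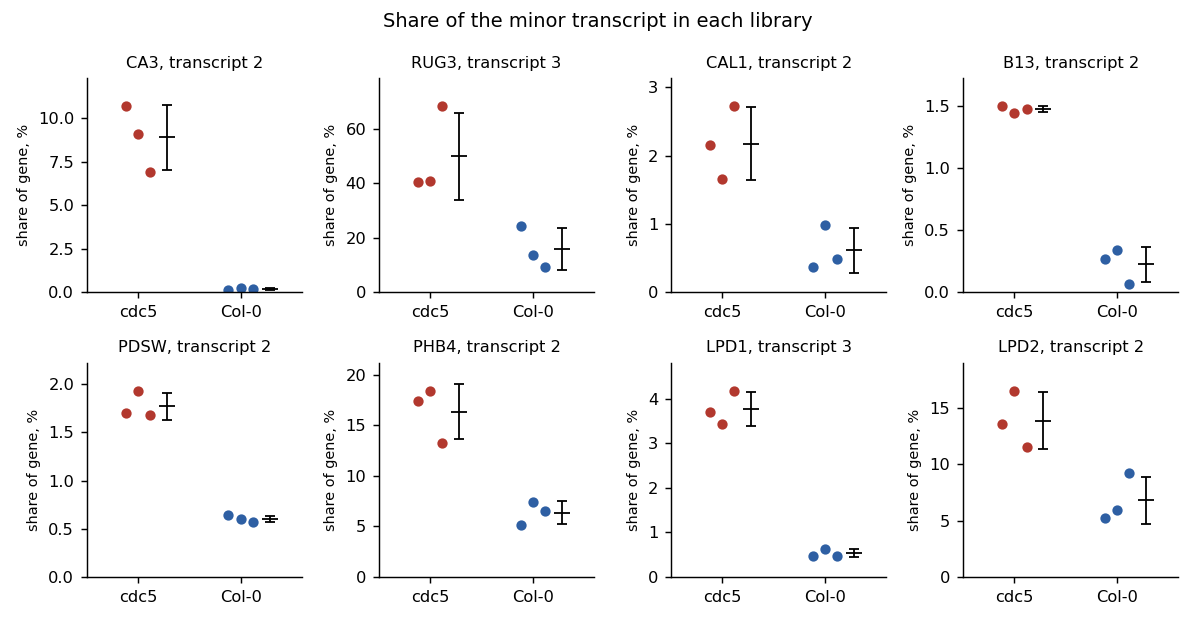
Share of the minor transcript in its gene's summed FPKM, in percent, for 8 complex I genes in each cdc5 library (red) and Col-0 library (blue), with mean and SD. No cdc5 point overlaps the Col-0 points in any of the 8 genes, and the shares span under 2% for B13 up to 68.2% for RUG3 in cdc5.

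A few genes split within a genotype, so that the test says little about them. AT2G27730, a listed component not assigned here to an arm, had 47.5, 49.1 and 105 FPKM in cdc5, against 128, 131 and 124 FPKM in Col-0. Its log2 fold change was the lowest of all, -1.02, but did not pass (SE 0.36, adjusted p = 0.075). Without cdc5 replicate 3 the difference was -1.38 (adjusted p = 4.7e-07). AT4G16450 overlaps a gene on the opposite strand, AT4G16451, whose part in its values was not tested. AT4G16450 had 78.6, 78.4 and 120 FPKM in cdc5, against 80.5, 129 and 132 FPKM in Col-0 (adjusted p = 0.45). It had values near 80 in both groups and values of 120 or more in both. The same holds less sharply for AT2G42210 (B14.7), with 81.7, 110 and 77.3 FPKM in cdc5, against 114, 76.4 and 94.1 FPKM in Col-0 (adjusted p = 0.78). AT4G16450 and AT2G42210 were singled out after their values were seen.

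In AT1G14450 the split was between its pair of transcripts and not in the gene. Transcript 1 had 42.8, 0.0341 and 41.6 FPKM in cdc5, against 0.386, 49.3 and 0.194 FPKM in Col-0. It was near 0 in 1 cdc5 library and 2 Col-0 libraries, where transcript 2 took nearly all of the gene. The usage test gave an adjusted p of 0.54.

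**Figure D5:**
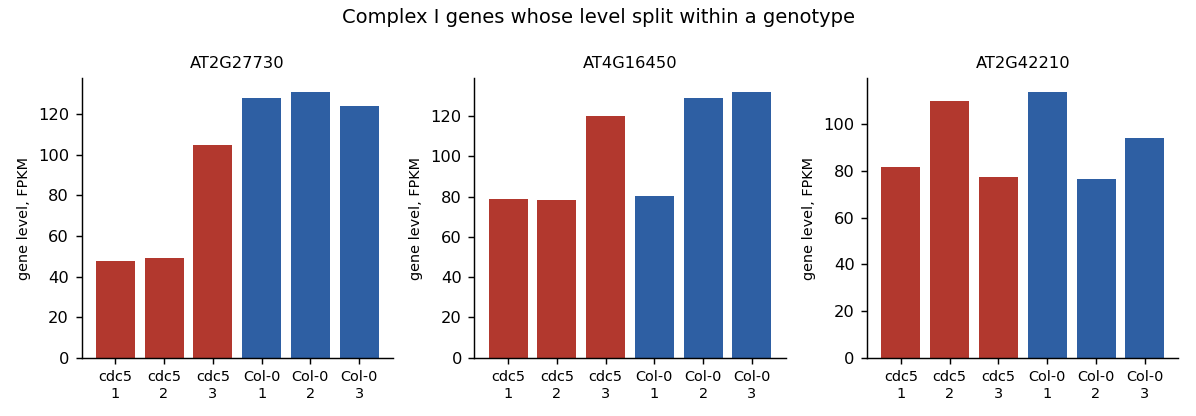
Gene level in FPKM of 3 complex I genes in each library, cdc5 replicates 1 to 3 in red and Col-0 replicates 1 to 3 in blue. AT2G27730 stands at 105 FPKM in cdc5 replicate 3 and below 50 in the other two cdc5 libraries, and AT4G16450 and AT2G42210 vary as much within a genotype as between genotypes.

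The 4 genes under the filter were PHB7 (AT5G44140), AT4G28005, AT2G07633 and AT2G07751, and none reached 0.5 FPKM in any library. AT2G07633 and AT2G07751 lie on chromosome 2 as copies of mitochondrial genes, so fragments of the mitochondrial gene and its nuclear copy can be confused. AT2G07751 had 0.0394, 0 and 0.103 FPKM in cdc5, against 0.476, 0.243 and 0.251 FPKM in Col-0. The authors' deposited table marks both as lower, with a q-value of 0.00499 for AT2G07633 and 0.023 for AT2G07751. They were not tested here.

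The other respiratory complexes together had calls in both directions, and their difference from complex I was not tested. Of 77 tested genes of complexes II, III and IV and of ATP synthase, 18 rose and 23 fell (median -0.07, as over the complex I genes). These are 23.4% and 29.9%, against 33.3% higher and 22.4% lower over all genes. With loess scaling the shares were 24.7% and 23.4%, near the 26.3% and 26.0% of all genes. Complex II, succinate dehydrogenase, had 5 of 13 lower and none higher (median -0.15), the smallest adjusted p being that of AT5G51040 with a log2 fold change of -0.43 (adjusted p = 1.9e-04). Complex III had 3 higher and 6 lower of 19, among them QCR7-2 (AT5G25450) with 30.9, 31.4 and 31.5 FPKM in cdc5, against 67.7, 75.8 and 77.7 FPKM in Col-0 (log2 fold change -1.21, adjusted p = 6.0e-07). Complex IV had 8 higher and 5 lower of 18, and OXA1, HCC1 and OXA1L, which act in its assembly, rose (log2 fold change 0.47, 0.49 and 0.36). ATP synthase had 7 higher and 8 lower of 29.

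Nuclear factors that mature the mitochondrial transcripts of complex I were higher where called. From a list of 16 factors 13 were tested, 8 rose (61.5%, against 33.3% of all genes) and none fell (median 0.30). With loess scaling 6 rose (46.2%, against 26.3% of all genes), and with the length and GC adjustment 4 did (30.8%, against 28.0% of all genes), a share near that of all genes. RH53, a DEAD-box helicase of group II intron splicing, had 39.9, 38.2 and 39.5 FPKM in cdc5, against 29.6, 29.6 and 29.3 FPKM in Col-0 (log2 fold change 0.40, adjusted p = 4.7e-05). ABO5 and NMAT2, which act on the splicing of mitochondrial introns, rose by 0.49 and 0.39 on the log2 scale (adjusted p = 6.6e-04 and 0.0048). RUG3 and AT4G31010 (mCSF1) stand both in this list and among the assembly genes.

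Enzymes that bypass complex I or the cytochrome path moved in both directions, with 4 higher and 3 lower of 10 tested. These are 40.0% and 30.0%, against 33.3% and 22.4% of all genes. AOX1A, an alternative oxidase, had 84.0, 86.0 and 88.3 FPKM in cdc5, against 13.3, 13.6 and 12.4 FPKM in Col-0 (log2 fold change 2.63, adjusted p = 2.9e-09). NDB4, an alternative NAD(P)H dehydrogenase, had 6.48, 5.94 and 6.35 FPKM in cdc5, against 0.438, 0.291 and 0.274 FPKM in Col-0 (log2 fold change 2.44, adjusted p = 3.3e-07). NDA1 rose by 0.59 on the log2 scale (adjusted p = 8.1e-06). Of the 3 listed assembly factors INDL, AT1G76065 and GLDH, none passed the test, with adjusted p from 0.14 to 0.82. INDL also counts among the 17 assembly genes.

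Organellar genes with the same words in their terms, 9 in all, had at most 1.35 FPKM in any library and were not tested. The libraries were made from polyadenylated RNA, which holds few organellar transcripts, so the levels of subunits encoded in the mitochondrion were not measured here.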

How the data were processed

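Polyadenylated RNA of 3 cdc5 and 3 Col-0 samples was read as paired ends from a dUTP-stranded library, per the labels' protocols. The authors deposited FPKM for 45666 transcripts, with a fold, a log2 fold, a p-value and a q-value column of their own. Tools listed, with no role, per the submitters' processing notes are StringTie 1.3.4d, HISAT2 2.0.4, edgeR, DESeq2 and cutadapt 1.9. The notes also name a mouse genome build, which cannot apply. The spans of 97.8% of nuclear genes and of 76 of the 77 complex I genes equal those of TAIR10.1. Coordinates of genes are those of the table, and events and sequences come from RefSeq's TAIR10.1. The sources used here do not give whether fragments were counted by strand, and 30 of the 77 genes overlap another gene.

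Gene level was the sum of FPKM over transcripts. Features whose mean reached 1 FPKM were compared with limma 3.58.1 (R 4.3.3) on log2(FPKM + 1), with trend and robust moderation and no covariate, which understates changes of low genes. Adjusted p is Benjamini-Hochberg over all features, with a threshold of 0.05. Tests were checked on simulated data. The step between low FPKM values gave an estimate of depth (68.8% to 72.5% of values within 0.1 of a whole multiple, 20% with a step not fitted), too few to recover counts, so no count model was run. Floors and counting errors cover counting error only. P-values therefore rest on differences among these libraries, which may be technical. Length is the FPKM-weighted mean of a gene's transcript lengths. Alternatives were another pseudocount, other filters, other scaling, a replicate block, leaving out each library, other ways of choosing members and the most abundant transcript alone.

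The members and lists were chosen with earlier results of these data known. Roles of subunits were assigned from general knowledge of plant complex I. Genes named are CDC5, the 8 highest and 8 lowest fold changes, carbonic anhydrases, duplicated subunits, electron path subunits, genes with a usage call, the 3 highest and 3 lowest levels, genes under the filter, and up to 3 of each other list by adjusted p. Any other gene was picked with its values in view. Python 3.11.15, numpy 2.4.6, pandas 2.3.3, scipy 1.17.1 and matplotlib 3.10.9 were used.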

Additional observations from a re-analysis of the deposited data

How the results depend on the processing

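In the limma fit on FPKM as deposited 16 complex I genes were higher and 27 lower in cdc5. Loess scaling left 15 higher and 18 lower, and with the most abundant transcript alone 8 were higher. Other choices of members change the number of genes tested: 27 were higher and 43 lower by the letters as written, complexes II to IV included, and 10 higher and 13 lower among the 47 genes that overlap no other gene. The median log2 fold change of -0.07 was -0.04 with loess scaling, -0.0041 with the length and GC adjustment and -0.09 with the most abundant transcript, and -0.08 to -0.07 when single libraries were left out. For the structural subunits (1 higher, 22 lower, median -0.14) loess scaling gave 3 and 13 (median -0.07), the length and GC adjustment 5 higher (median -0.08) and the most abundant transcript a median of -0.17. Among the 25 structural subunits that overlap no other gene, a choice made after seeing the data, 12 were lower (median -0.08), and 7 with loess scaling. Leaving out single libraries gave 1 to 2 higher structural subunits and 4 to 7 higher assembly genes. Of the 8 higher assembly genes 4 were left with loess scaling, and 1 was lower with the length and GC adjustment.

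Among transcripts a filter of 5 FPKM left 8 of 15 higher ones and 1 of 9 usage calls, because fewer transcripts were tested. The replicate block left 17 of the 27 lower transcripts. Deviations of libraries with the same number correlated by 0 to 0.06, so the numbers were not taken as pairs. At the gene level the block gave 14 higher and 26 lower. The fold change turned sign, and was called in at least 1 of the fits compared, for AT3G18410 (0.13), AT5G11770 (0.01), AT5G52840 (0.05) and AT5G63510 (0.13) with the length and GC adjustment, and for AT5G60870 (-0.63) with its most abundant transcript. Other genes near 0 turned sign with no call in either fit, among them CI51, LPD2 and AT1G49140 with loess scaling. The cause was not tested. Depth limits minor transcripts near 0.1 FPKM.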
